A study of Mus musculus with 19 samples.

Results

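The mRNA levels of 10 genes were examined in astrocytes sorted from the mouse hippocampus. These were 6 receptors grouped with the gp130 cytokine family (*Il6st*, *Lifr*, *Osmr*, *Lepr*, *Cntfr* and *Il6ra*) and the 4 Janus kinases (*Jak1*, *Jak2*, *Jak3* and *Tyk2*). They were chosen by name, and all 10 were found among the 60567 genes listed, on 1 entry each. RNAseq was performed on cells of 9 month-old male mice on a C57bl6 background. WT-GFP mice are non-transgenic littermates, while APP-GFP and APP-SOCS3 mice are APP/PS1dE9 transgenic mice, which carry a mutated amyloid precursor protein gene and a mutated presenilin gene and develop amyloid plaques. All mice received an adeno-associated viral vector encoding GFP in the hippocampus, under gfaABC1D, a promoter derived from the *Gfap* gene, and APP-SOCS3 mice received in addition a vector encoding murine SOCS3 at the same total titer, so that every group compared carried GFP. The vectors reach part of the hippocampal astrocytes, and GFP+ cells are those that they reached. GFP+ astrocytes came in 7 samples from WT-GFP, 4 from APP-GFP and 5 from APP-SOCS3 mice, beside 3 samples of GFP- cells of WT-GFP mice. In the latter, the authors list microglia, neurons, oligodendrocyte precursor cells and astrocytes that the vector did not reach. Marker genes of vascular cells were also high there. Summed levels in GFP- samples were 135518 to 214229 for 12 endothelial genes and 131545 to 171525 for 10 mural genes.

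The cytokines interleukin-6, oncostatin M, leukemia inhibitory factor and ciliary neurotrophic factor signal through gp130, the shared receptor chain encoded by *Il6st*. Some of them first bind a receptor that cannot signal by itself (IL-6Rα, encoded by *Il6ra*, or CNTFRα, encoded by *Cntfr*), and gp130 then pairs with itself or with the receptor encoded by *Lifr* or *Osmr*. The receptors carry Janus kinases on their inner side, which phosphorylate the receptor and STAT3 once a cytokine binds, and SOCS3, itself induced by STAT3, binds gp130 and the kinases and blocks this step. In astrocytes, the pathway is known as a route to reactivity, the change in shape and gene expression that follows injury and disease. The question of the 4 comparisons is how the mRNAs of the receptors and kinases stand in astrocytes, in astrocytes of APP mice, and in astrocytes in which the vector delivers the inhibitor.

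Reads counted on genes were 19331876 to 32621917 per sample, and these counts were divided by 1 size factor per sample by the authors to give the normalized mRNA levels used here. Libraries were made from few cells with PCR amplification, and molecular identifiers are not described, so limits set from reads cover counting error only. Between 15575 and 31897 genes had at least 1 read, and 4 GFP+ libraries had fewer than 20000 (WT-GFP replicates 1, 2 and 3 and APP-GFP replicate 2). The sources used here do not say which samples, if any, are the 2 hippocampi of 1 mouse, so *p* values measure only the spread between samples and are too small where a mouse was sampled on both sides. The authors collected both GFP+ and GFP- cells for each sorted sample. Which GFP- samples share a hippocampus with which WT-GFP astrocyte samples is not stated. These groups were compared as unpaired, so any such sharing was not taken into account. All 12 astrocyte marker genes listed were above 0 in each of the 19 samples and were called higher in WT-GFP astrocytes than in the GFP- cells. Median levels of 12 microglial genes, as a percentage of their means in GFP- cells, were 6.21 to 21.1% for WT-GFP, 7.35 to 33.8% for APP-GFP and 3.24 to 7.18% for APP-SOCS3 astrocytes, with no gene at 0 in any sample. For 12 endothelial genes these values were 2.54 to 13.2%, 3.48 to 18.6% and 0.461 to 4.55%, with up to 3 genes at 0 in a sample. *Socs3* levels were 13296 to 37750.1 in the 5 APP-SOCS3 samples, above all 11 other GFP+ samples (at most 1639).

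Positions of the entries are those of the authors' annotation on the mm10 mouse genome. Entries overlapped the gene of the same name in GENCODE M21 for all 10 genes. The signal-transducing receptors lie on chromosome 13 from 112464070 to 112506860 (*Il6st*), chromosome 15 from 7129558 to 7197489 (*Lifr*), chromosome 15 from 6813577 to 6874969 (*Osmr*) and chromosome 4 from 101717407 to 101815569 (*Lepr*). The ligand-binding receptors lie on chromosome 4 from 41657499 to 41697091 (*Cntfr*) and chromosome 3 from 88734037 to 89913197 (*Il6ra*). The kinases lie on chromosome 4 from 101151974 to 101265282 (*Jak1*), chromosome 19 from 29251803 to 29313080 (*Jak2*), chromosome 8 from 71676383 to 71690577 (*Jak3*) and chromosome 9 from 21104068 to 21131275 (*Tyk2*). Values of 4 genes are uncertain because of overlaps: the *Il6ra* entry spans 1179 kb, against 49.1 kb for the GENCODE gene, and overlaps 40 other protein-coding genes, while the *Jak3* entry also names *Insl3*, a hormone gene that it overlaps. The *Jak1* entry overlaps 3 other genes, of which *Raver2* is protein-coding, and the *Tyk2* entry overlaps 1 that is not protein-coding. The strand setting of the counting is not given in the sources used here, so reads of these genes cannot be told apart where they overlap.

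Promoter windows of RefSeq (GRCm38.p6, 250 bases before to 50 after a gene's start) were matched by symbol for all 10 genes, 17 windows in all. The 250 bases before the start are shown for *Jak2*, the kinase after which the study names the pathway, and for *Jak3*, the kinase whose level differed most between groups, with each GC box (GGGCGG on either strand) in capitals. They lie on the + strand at chr19:29251553-29251802 and chr8:71676133-71676382.
Jak2: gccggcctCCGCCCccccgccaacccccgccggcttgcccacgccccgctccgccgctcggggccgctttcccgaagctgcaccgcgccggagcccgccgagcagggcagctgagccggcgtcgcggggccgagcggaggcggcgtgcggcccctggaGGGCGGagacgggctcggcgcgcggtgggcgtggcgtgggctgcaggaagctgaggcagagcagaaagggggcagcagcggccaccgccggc
Jak3: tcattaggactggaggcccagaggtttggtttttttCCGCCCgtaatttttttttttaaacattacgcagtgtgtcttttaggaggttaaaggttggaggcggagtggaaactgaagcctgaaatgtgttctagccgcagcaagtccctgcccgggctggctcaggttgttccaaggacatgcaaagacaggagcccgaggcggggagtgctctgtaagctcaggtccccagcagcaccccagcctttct
The *Jak2* window of 300 bases had 81.0% G or C, 44 CpG dinucleotides and 3 GC boxes, 2 of them before the start. The *Jak3* window had 54.3%, 9 and 1, and the median over all 32851 windows was 52.7% G or C. Each of 4 motifs was searched in each window on both strands, with overlaps counted, and these are descriptions of letters only. A GC box stood in 35.7% of all windows, the STAT motif TTCNNNGAA in 8.30%, the TATA motif TATAAA in 13.6% and the NF-kB motif in 4.51%. None of the 17 windows held the STAT or the TATA motif in these letters, and 1 of the 6 *Cntfr* windows held the NF-kB motif.

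Levels of different genes were set side by side after division by the length of their merged exons in GENCODE M21, since a long mRNA gives more reads than a short one. The authors counted constitutive parts of genes, whose lengths were not used here, so the order is approximate. In WT-GFP astrocytes, the highest length-scaled levels were those of *Jak1*, the kinase that most gp130 cytokines use, at 472 ± 217 per kb, and of *Cntfr*, at 408 ± 139.6 per kb (SD, n = 7). *Jak1* was above *Cntfr* in 4 of 7 samples, so their order was not resolved. *Jak2* (201 ± 74.5 per kb) was below *Cntfr* and above *Tyk2* (76.0 ± 26.6 per kb) in 7 of 7 samples. *Il6st*, the shared chain (70.1 ± 51.9 per kb), was below *Tyk2* in 4 of 7 samples. *Jak3* (20.9 ± 21.3 per kb), *Osmr* (18.6 ± 12.5 per kb) and *Lifr* (16.4 ± 10.7 per kb) followed, and neighbours among these 3 kept their order in at most 4 of 7 samples. The last places were taken by *Il6ra* (3.13 ± 2.11 per kb), below *Lifr* in 7 of 7 samples, and *Lepr* (1.60 ± 2.17 per kb).
In APP-GFP and APP-SOCS3 astrocytes, mean length-scaled levels were highest for *Cntfr*, at 615 ± 265 (SD, n = 4) and 1017 ± 556 per kb (SD, n = 5). *Jak1* followed at 397 ± 75.7 and 452 ± 152 per kb, and it was below *Cntfr* in 3 of 4 and 3 of 5 samples. In GFP- cells the order was different, with *Jak1* at 702 ± 132 and *Jak3* at 394 ± 92.6 per kb (SD, n = 3), and *Jak2* was above *Jak3* in 1 of 3 samples. With the longest transcript in place of merged exons, 2 genes in WT-GFP, 4 in APP-GFP, 2 in APP-SOCS3 and 6 in GFP- cells changed place.

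**Figure D1:**
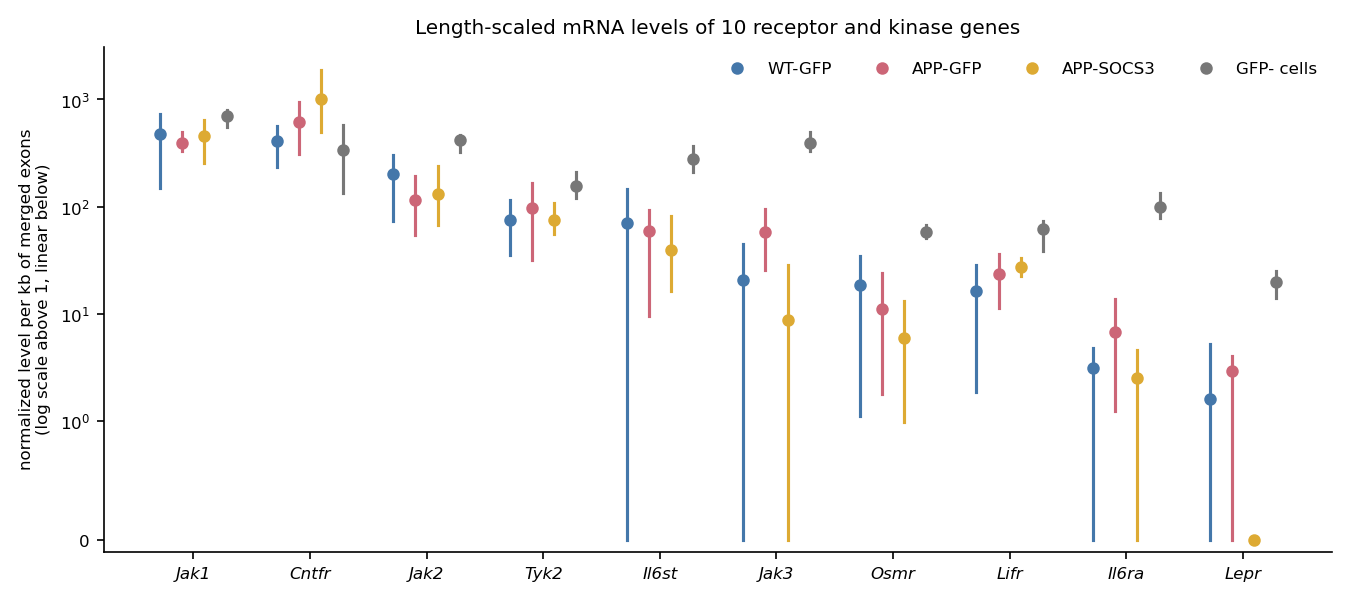
Normalized mRNA level divided by kb of merged exons (log scale above 1, linear below) for 10 genes, in order of their means in WT-GFP astrocytes. Points are means and lines run from the lowest to the highest sample (n = 7, 4, 5 and 3 for WT-GFP, APP-GFP, APP-SOCS3 and GFP-). *Jak1* and *Cntfr* lead in the 3 GFP+ groups. In GFP- cells the means of *Jak1*, *Jak2* and *Jak3* are highest, but *Jak3* is above *Cntfr* in 2 of 3 samples only and their ranges overlap.

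In WT-GFP mice, 7 of the 10 mRNAs were lower in GFP+ astrocytes than in GFP- cells, and none was higher. A gene is called here when limma on log2(level + 1) gave an unadjusted *p* up to 0.05 together with a change of 1.5 times or more. By this rule 42.8% of all genes tested were called, and 33.5% were called lower in GFP+ astrocytes, so such a call is common in this comparison. All 10 genes passed the minimum of a mean level of 10 in either group. Over the 10 genes the median log2 fold change was -2.28, against -1.31 over the 26709 genes tested. Of all calls 21.6% were higher in astrocytes, a share of 36.3% with samples scaled to equal upper quartiles, 38.7% with edgeR and 35.4% with DESeq2. Scaled to upper quartiles or with edgeR, 4 of the 10 genes were called, against 41.1% and 32.2% of all genes, and without GFP- replicate 3, 3 were, against 33.4% of all genes. At these settings the count among the 10 was near the share of all genes called. Without the 3 WT-GFP libraries with few genes detected, 8 were called, *Il6st* being added, against 46.4% of all genes. *Lepr*, *Il6ra*, *Jak2*, *Jak3* and *Tyk2* also had an adjusted *p* under 0.05 (Benjamini-Hochberg over all genes tested), as had 31.9% of genes. Groups did not overlap for 8 of the 10 genes, against 34.8% of genes. In samples of many cells, fewer cells of a type and less RNA per cell cannot be told apart.

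Among the signal-transducing receptors, *Il6st* levels in the 7 WT-GFP astrocyte samples were 0 to 1622 with a median of 718, and they were 2705, 2358 and 4119.7 in the 3 samples of GFP- cells. Every GFP- sample was above every GFP+ sample, by 3.93 times in the means, and 1 GFP+ sample, WT-GFP replicate 2, had no read. The log2 fold change was -3.36 (95% interval -7.62 to 0.91, limma *p* = 0.111, exact permutation *p* = 0.0167), and without that sample it was -1.99 and *Il6st* was called. *Lifr*, which pairs with gp130 for leukemia inhibitory factor and ciliary neurotrophic factor, had levels of 20.0 to 307 (median 219.9) in astrocytes and 801, 418 and 765 in the 3 samples of GFP- cells. *Osmr*, the partner of gp130 for oncostatin M, had 13.6 to 421 (median 233) and 816, 619 and 676 in the 3 samples of GFP- cells. Both were lower in astrocytes in all samples, with log2 fold changes of -2.29 ± 0.81 and -2.28 ± 0.99 (SE, limma *p* = 0.0167 and 0.0431, both exact permutation *p* = 0.0167). Their calls were lost without GFP- replicate 3 (log2 fold changes of -2.16 and -2.30). *Lepr*, the leptin receptor, was at 0 in 4 of 7 astrocyte samples and at most 37.2, against 178, 144 and 99.9 in the 3 samples of GFP- cells. Its mean was 12.5 times higher in GFP- cells (log2 fold change -5.09 ± 1.47, limma adjusted *p* = 0.0223).

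The ligand-binding receptors stood at opposite ends. *Il6ra* levels were 0 to 42.0 (median 40.3) in astrocytes and 759, 678 and 1155 in the 3 samples of GFP- cells, and no sample of astrocytes came near the GFP- cells. Its mean was 31.9 times higher in GFP- cells (log2 fold change -5.60 ± 1.17, limma adjusted *p* = 0.00436), on an entry that spans other genes. *Cntfr* had levels of 649 to 1571 (median 1133) in astrocytes and 1617, 811 and 375 in the 3 samples of GFP- cells, and the groups overlapped. It was not called in either direction, with a log2 fold change of 0.44 (95% interval -0.55 to 1.43, limma *p* = 0.345, exact permutation *p* = 0.417).

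Of the kinases, *Jak3*, which works with the common gamma chain of lymphoid and myeloid cytokine receptors, differed most. It had no read in 3 of 7 WT-GFP astrocyte samples and at most 242 in the others, against 1888, 1766 and 2679 in the 3 samples of GFP- cells. The mean was 18.9 times higher in GFP- cells (log2 fold change -6.71 ± 2.13, limma adjusted *p* = 0.0337). *Jak2* levels were 370.1 to 1542 (median 1091) in astrocytes and 2297, 1645 and 2353 in the 3 samples of GFP- cells. *Tyk2* levels were 242 to 788 (median 529.7) and 827, 982 and 1433 in the 3 samples of GFP- cells. For these 2 kinases GFP- samples were all higher, by 2.08 and 2.07 times in the means, with log2 fold changes of -1.15 ± 0.39 and -1.10 ± 0.37 (SE, limma adjusted *p* = 0.0426 and 0.0426). Without GFP- replicate 3 neither was called (-1.06 and -0.87). Both values are nearer to 0 than the median of all genes, by 0.16 and 0.22 on the log2 scale. With samples scaled to equal upper quartiles, which moved that median to -0.86, neither was called (log2 fold changes of -0.65 and -0.60). *Jak1* had 1069.7 to 5272 (median 3679.7) in astrocytes and 5769, 3985 and 5476 in the 3 samples of GFP- cells, with overlap between groups and a log2 fold change of -0.73 (95% interval -1.71 to 0.26, limma *p* = 0.131, exact permutation *p* = 0.133). The 8 genes whose groups did not overlap each had a 2-sided exact permutation *p* of 0.0167, the smallest that 7 against 3 samples allow.

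**Figure D2:**
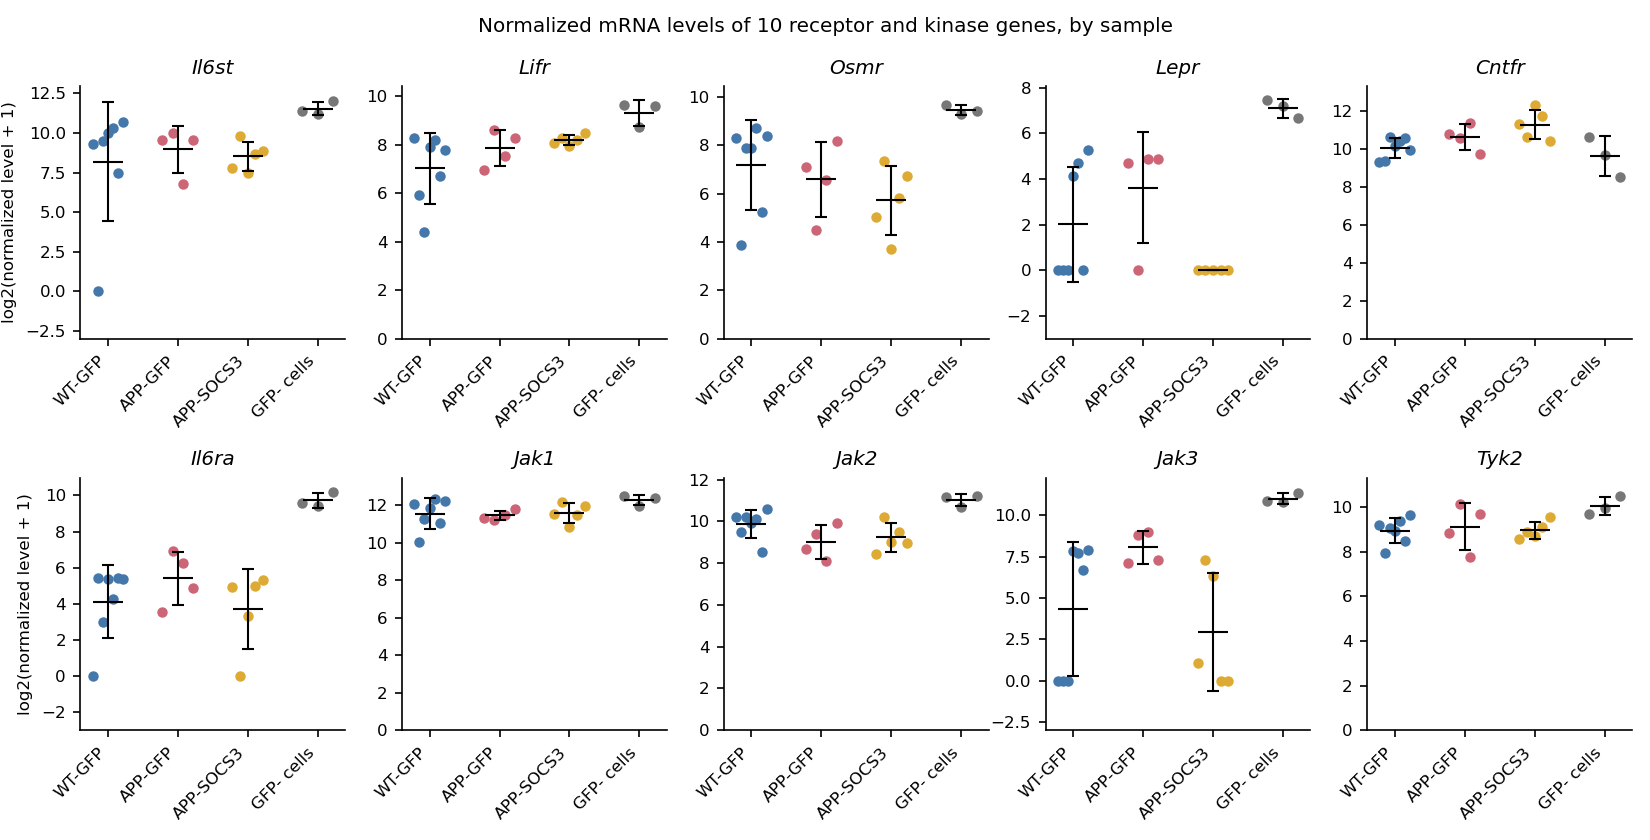
log2(normalized level + 1) of each gene (vertical axis) in every sample, by group. Points are samples, and the bar and whiskers are the mean and SD of log2 levels for n = 7, 4, 5 and 3. GFP- samples stand above all WT-GFP samples except for *Cntfr* and *Jak1*, and *Lepr* is at 0 in all 5 APP-SOCS3 samples.

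As a percentage of the mean in GFP- cells, mean *Jak3* levels in WT-GFP astrocytes were 5.30% and *Il6ra* levels were 3.13%. Medians of the microglial list in the same samples were 6.21 to 21.1%, and of the endothelial list 2.54 to 13.2%. *Lepr* stood at 8.03%, *Il6st* at 25.4%, *Lifr* at 26.8%, *Osmr* at 32.1%, *Jak2* at 48.1%, *Tyk2* at 48.3%, *Jak1* at 67.2% and *Cntfr* at 121%. Thus in WT-GFP astrocytes the mean percentages of *Jak3*, *Il6ra* and *Lepr* lay below or within the range of the microglial list. Those of the other 7 genes lay above it. In APP-GFP astrocytes, means of *Il6st* (21.6%), *Osmr* (19.2%) and *Jak2* (27.7%) also lay within the range of that group, 7.35 to 33.8%. How much of each mRNA in the GFP+ samples came from other cells was not tested.

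**Figure D3:**
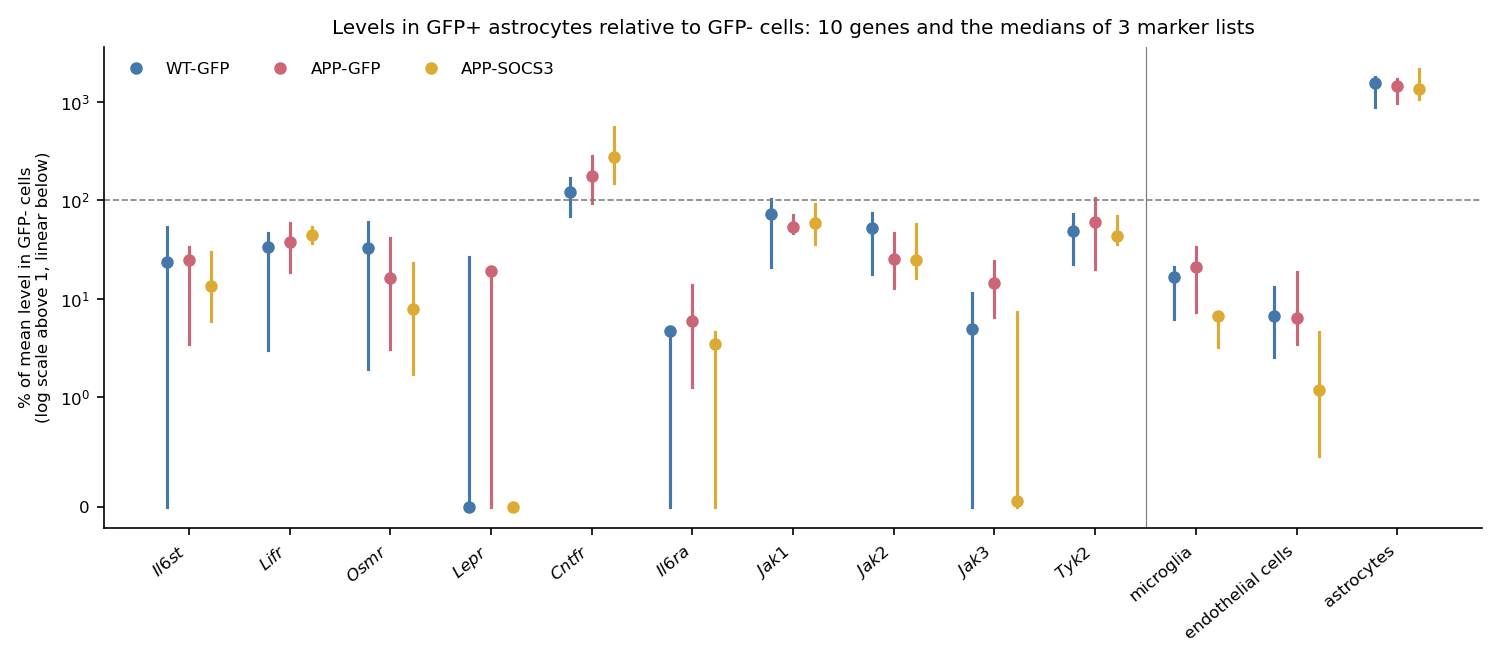
Levels in GFP+ astrocytes as a percentage of the mean in GFP- cells (log scale above 1, linear below) for the 10 genes and for the medians of the microglial, endothelial and astrocyte marker lists. Points are medians and lines run from the lowest to the highest of each group, with 7, 4 and 5 samples. Medians of *Jak3*, *Il6ra* and *Lepr* are at or under 19.2% in all 3 groups. So are those of *Osmr* in APP-GFP (16.2%) and APP-SOCS3 (7.80%) and of *Il6st* in APP-SOCS3 (13.5%). All 3 medians of *Cntfr* are above 100%, the dashed line.

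Between APP-GFP and WT-GFP astrocytes, none of the 10 genes was called by limma, where 2.23% of all 22969 genes tested were. None of the 10 had an unadjusted *p* under 0.05, none had an adjusted *p* under 0.05 (0.00435% of genes), and none had groups that were apart (0.313% of genes). The comparisons among GFP+ astrocytes share samples: WT-GFP enters with APP-GFP and with APP-SOCS3, and the same APP-GFP samples are set against both. edgeR and DESeq2 on whole reads also called 0 of the 10, against 2.87% and 2.31% of all genes. The median log2 fold change was 0.68 over the 10 genes and 0.09 over all genes. Of all calls 74.5% were higher in APP-GFP, and 62.5% with edgeR, 38.7% with DESeq2 and 43.5% without the 4 libraries of few detected genes.

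The genes nearest the thresholds were both kinases. *Jak2* levels were 404, 663, 272 and 982 in the 4 APP-GFP samples, against 370.1 to 1542 with a median of 1091 in WT-GFP. The groups overlapped, and the log2 fold change was -0.85 (95% interval -1.76 to 0.06, limma *p* = 0.0646, exact permutation *p* = 0.0909). *Jak3* levels were 138, 453, 509 and 158 in APP-GFP samples, all above 0, against 0 in 3 WT-GFP samples and a highest value of 242. The groups overlapped, with a log2 fold change of 3.75 (95% interval -0.24 to 7.75, limma *p* = 0.0635, exact permutation *p* = 0.0848). The 3 WT-GFP libraries without a *Jak3* read are among those with fewer than 20000 genes detected, and without the 4 such libraries the log2 fold change of *Jak3* was 0.26 and none of the 10 was called. With single samples left out, *Jak3* was called higher without WT-GFP replicate 4 (4.34), 5 (4.32) or 7 (4.35). *Jak2* was called lower without WT-GFP replicate 6 (-1.07) or APP-GFP replicate 4 (-1.16), and without the latter *Cntfr* was called higher (0.85). The other intervals were wide: for *Il6st* the log2 fold change was 0.79 (-2.84 to 4.42), for *Lifr* 0.83 (-0.79 to 2.44), for *Osmr* -0.59 (-2.75 to 1.57), for *Lepr* 1.61 (-1.67 to 4.89) and for *Il6ra* 1.28 (-1.36 to 3.92). They were narrower for *Jak1*, at -0.10 (-0.92 to 0.73), *Tyk2*, at 0.18 (-0.80 to 1.16), and *Cntfr*, at 0.56 (-0.18 to 1.31).

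Between APP-SOCS3 and APP-GFP astrocytes, *Jak3* and *Lepr* were lower with SOCS3, and the other 8 genes were not called. This is 2 of 10 genes, where 5.7% of all 22844 genes tested were called and 3.37% were called lower. Neither had an adjusted *p* under 0.05 (limma adjusted *p* = 0.641 for both), as had 0.00438% of genes, and none of the 10 had groups that were apart, as had 2.01% of genes. The median log2 fold change was -0.30 over the 10 genes and 0.08 over all genes. Higher genes made up 40.9% of all calls, and 30.1% with edgeR, 34.2% with DESeq2 and 31.9% without the libraries of few detected genes, where *Jak3* and *Lepr* were called as well. Of those libraries, only APP-GFP replicate 2 takes part here, and it had no *Lepr* read.

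*Jak3* levels were 1.10, 154, 81.0, 0 and 0 in the 5 APP-SOCS3 samples and 138, 453, 509 and 158 in the 4 APP-GFP samples. In all, 4 of the 5 APP-SOCS3 samples lay below all APP-GFP samples, and APP-SOCS3 replicate 2 lay above 1 of them. The mean was 6.65 times lower, with a log2 fold change of -5.12 ± 1.59 (SE, limma *p* = 0.00805, exact permutation *p* = 0.0317). *Lepr* had no read in any of the 5 APP-SOCS3 samples, and its levels were 25.3, 0, 28.7 and 28.8 in APP-GFP samples. Taking 3 reads per library as the limit that a count of 0 allows, the APP-SOCS3 mean was at least 7.05-fold below the APP-GFP mean. This covers counting error only and leaves out the spread between samples, so it is no lower limit for the difference between groups. The log2 fold change of *Lepr* was -3.63 (95% interval -6.22 to -1.03). The limma *p* was 0.0105 and the exact permutation *p* 0.0952, and APP-GFP replicate 2 was at 0 as well. Where *Lepr* was detected in APP-GFP astrocytes, its level rested on 28 to 33 reads, so it is a gene of low abundance there.

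Marker genes of other cells moved in the same direction in this comparison. Of the microglial genes 11 of 12 were called lower in APP-SOCS3 astrocytes, of the endothelial genes 12 of 12, of the border macrophage genes 6 of 8, of the mural genes 5 of 10, of the fibroblast genes 3 of 6, of the neuronal genes 3 of 9 tested, of the oligodendrocyte precursor genes 3 of 6 and of the oligodendrocyte genes 1 of 7 tested. Summed levels of the 12 microglial genes were 8167 to 14050.5 in APP-SOCS3, 14309 to 63844 in APP-GFP and 10426 to 36978 in WT-GFP astrocytes, against 116999 to 207986 in GFP- cells. None of the 6 choroid plexus and ependymal genes was called, and 1 of the 12 astrocyte genes was, lower. With the mean level of the microglial list as a covariate, the log2 fold change was -2.06 for *Jak3* and -4.96 for *Lepr*. With the endothelial list it was -3.54 and -5.55. The call of *Jak3* was thus lost and that of *Lepr* kept in both fits, where 2.27% and 2.9% of all genes were called. Microglial medians were 3.24 to 7.18% in APP-SOCS3 and 7.35 to 33.8% in APP-GFP samples. They did not overlap, so the fit can hardly separate this covariate from the group. The part of other cells in these changes was not tested. On whole reads, the log2 fold change of *Jak3* was -2.70 with edgeR and -2.72 with DESeq2, which did not call it, while both called *Lepr* (-7.46 and -6.85). Within the 4 APP-GFP samples, the 2 with the highest *Jak3* levels (replicates 2 and 3) were those with the highest microglial medians, 31.0% and 33.8% of GFP- cells, against 7.35% and 10.6%. Within APP-SOCS3, the 2 samples with no *Jak3* read had the lowest microglial medians, 3.52% and 3.24%, against 6.73% to 7.18%. The same order was seen in other lists: the 2 APP-GFP samples stood highest in 7 of the 9 lists of other cells, among them endothelial genes (9.04% and 18.6% against 3.48% and 3.74%) and mural genes (10.3% and 13.5% against 1.98% and 2.81%), and the 2 APP-SOCS3 samples stood lowest in 4 of 9. In WT-GFP, *Jak3* did not follow the microglial order throughout. Replicate 1 had no *Jak3* read at 6.21%, the lowest median of the group. But replicates 2 and 3 had no *Jak3* read at 19.7% and 18.7%, and replicate 7 had the highest level at 7.54%. However, replicates 1, 2 and 3 are libraries with few genes detected (19198, 18107 and 15575), against 24974 in replicate 7. Whether their lack of *Jak3* reads comes from low detection was not tested.

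**Figure D4:**
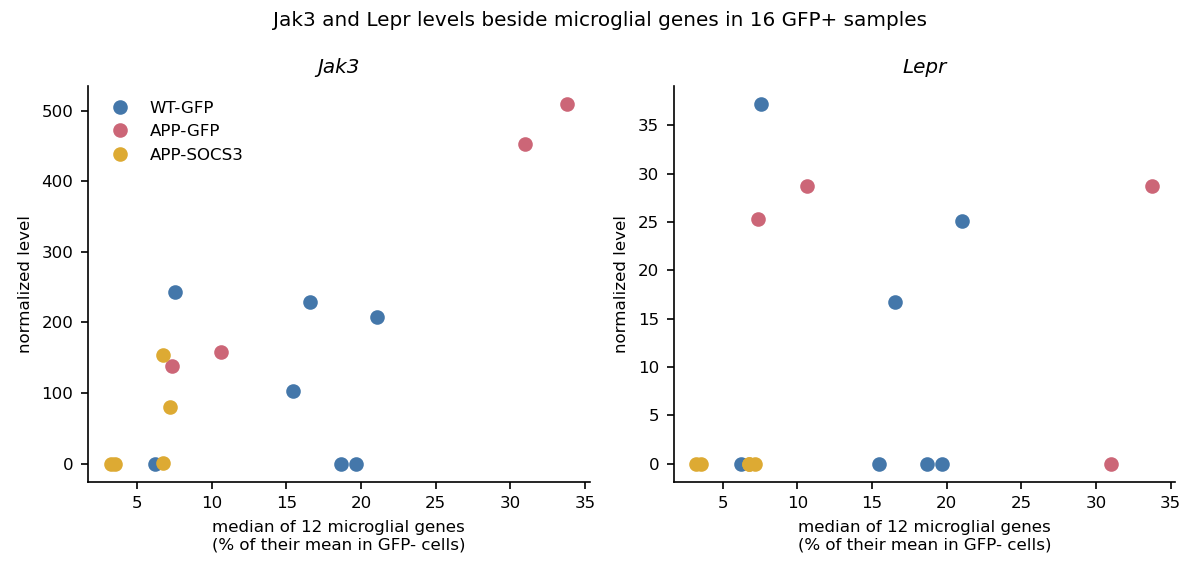
Normalized level of *Jak3* (left) and *Lepr* (right) against the median of 12 microglial genes, as a percentage of their mean in GFP- cells, in 16 GFP+ samples. Each point is 1 sample. The 2 APP-GFP samples with the highest medians have the highest *Jak3* levels, and all 5 APP-SOCS3 samples lie at 7.18% or less.

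*Il6st*, *Jak1*, *Jak2* and *Tyk2*, whose proteins SOCS3 is known to bind or inhibit, were not called. *Il6st* levels were 217, 904, 180.0, 415 and 461 in APP-SOCS3 and 762, 1027, 107 and 751 in APP-GFP samples, and the groups overlapped. The log2 fold change was -0.44 (95% interval -1.92 to 1.03, limma *p* = 0.521, exact permutation *p* = 0.603). Without APP-GFP replicate 3, the lowest sample of its group, it was -1.18 and *Il6st* was called lower. *Jak2* levels were 341, 1199, 518, 725 and 504 in APP-SOCS3 samples, within the range of APP-GFP in 4 of 5, and the log2 fold change was 0.21 (-0.73 to 1.15). *Jak1* levels were 2959, 4656, 1831, 2873 and 4031 in APP-SOCS3 and 2592, 2379, 2867 and 3632 in APP-GFP samples, and here the interval was narrowest, -0.42 to 0.69 around 0.14. *Tyk2* had a log2 fold change of -0.16 (-1.11 to 0.80), *Lifr* of 0.35 (-0.44 to 1.13), *Osmr* of -0.86 (-2.84 to 1.12), *Il6ra* of -1.69 (-4.40 to 1.02) and *Cntfr* of 0.66 (-0.24 to 1.56).

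**Figure D5:**
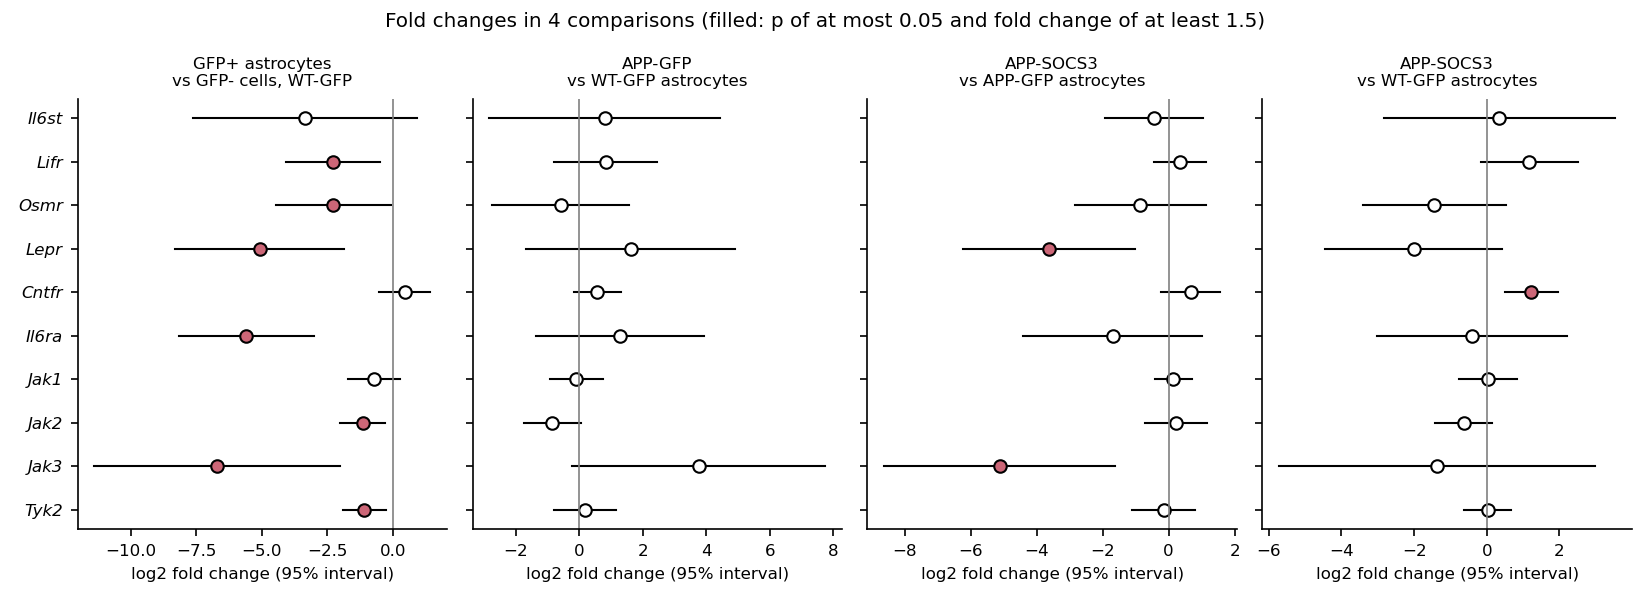
log2 fold change of log2(level + 1), first group minus second (horizontal axis), with its 95% interval for 10 genes in 4 comparisons. Filled points passed both thresholds (7, 0, 2 and 1 genes from left to right), and the grey line marks no change.

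Against WT-GFP astrocytes, *Cntfr* was higher in APP-SOCS3 astrocytes and was the single gene of the 10 called. Of all 22958 genes tested, 5.21% were called and 3.19% called higher. *Cntfr* levels were 2551, 1599, 5182, 3426 and 1383 in APP-SOCS3 samples, and 649 to 1571 with a median of 1133 in WT-GFP samples. In 4 of the 5 APP-SOCS3 samples *Cntfr* was above every WT-GFP sample, and replicate 5 was below 3 of them. The mean was 2.49 times higher, with a log2 fold change of 1.23 ± 0.34 (SE, limma *p* = 0.00309, exact permutation *p* = 0.0126). The adjusted *p* was 0.394, while 0.0305% of genes passed after adjustment, and 0.566% of genes, none of these 10, had groups that were apart. The call was kept with each sample left out in turn, with log2 fold changes of 0.97 to 1.44, with both covariates and with edgeR and DESeq2. APP-GFP samples had *Cntfr* levels of 1789, 1542, 2649 and 867, between the other groups in the mean, and were not called against either.
The median log2 fold change was -0.19 over the 10 genes and 0.19 over all genes, and 61.2% of all calls were higher (36.7% with edgeR, 29.2% with DESeq2 and 24.9% without the libraries of few detected genes). Next to *Cntfr*, *Lifr*, the partner in the receptor for ciliary neurotrophic factor, had levels of 266, 313, 246, 293 and 355 in APP-SOCS3 and 20.0 to 307 (median 219.9) in WT-GFP samples. All 5 lay above the WT-GFP median, and the log2 fold change was 1.17 (95% interval -0.15 to 2.50, limma *p* = 0.0784, exact permutation *p* = 0.0505), short of the thresholds, which it passed without WT-GFP replicate 1 or 5 (1.38 and 1.37). *Osmr* levels were 32.0, 161, 12.0, 54.9 and 105 in APP-SOCS3 and 13.6 to 421 (median 233) in WT-GFP samples, with a log2 fold change of -1.45 (-3.41 to 0.52, limma *p* = 0.136, exact permutation *p* = 0.174). Without WT-GFP replicate 2 it was -1.999 and *Osmr* was called lower. For *Jak2* the change was -0.64 (-1.42 to 0.15), called lower without WT-GFP replicate 6 (-0.86) or APP-SOCS3 replicate 2 (-0.89). It was, for *Jak1*, 0.04 (-0.75 to 0.84), for *Tyk2* 0.02 (-0.63 to 0.68), for *Jak3* -1.37 (-5.71 to 2.97), for *Lepr* -2.02 (-4.45 to 0.41), for *Il6st* 0.35 (-2.84 to 3.53) and for *Il6ra* -0.41 (-3.02 to 2.21). Without the 4 libraries with few genes detected, which include all 3 WT-GFP libraries without *Jak3* reads, *Lepr* and *Jak3* were called lower in APP-SOCS3 beside *Cntfr*, with log2 fold changes of -3.53 and -4.61. At this setting 7.18% of all genes were called and 5.39% were called lower. *Lepr* was also called lower with edgeR and with sample weights, and *Osmr* with DESeq2 (-1.62) and with sample weights (-2.48). Of the marker lists, 9 of 12 microglial, 10 of 12 endothelial, 5 of 10 mural, 3 of 6 fibroblast, 2 of 6 oligodendrocyte precursor and 1 of 5 oligodendrocyte genes tested were called lower, as was 1 of 12 astrocyte genes, and 1 of 9 neuronal genes was called higher. The *Cntfr* call was kept with the microglial and endothelial covariates, and the part of the other lists was not tested.

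Around the receptors and kinases, 58 other genes of the pathway were listed, and 40 of the 55 tested were called between GFP+ and GFP- cells, 38 of them lower in GFP+ astrocytes, where 42.8% of all genes were called and 33.5% called lower. Medians of the log2 fold change over this list were -2.05 in this comparison, 0.29 between APP-GFP and WT-GFP, -0.26 between APP-SOCS3 and APP-GFP, and -0.06 in the last comparison, beside the medians over all genes given above. Higher in astrocytes were *Il11ra1*, the receptor that binds interleukin-11 for gp130, with 5067 ± 827 against 1541 ± 298 in GFP- cells, and *Ghr*, the growth hormone receptor, with 717 ± 302 against 305 ± 89.3. Of the ligands 4 of 9 tested were lower in astrocytes, of the other gp130 family receptors 1 of 2, of the other JAK-coupled receptors 13 of 14, of the STAT factors 4 of 7, of the SOCS inhibitors 7 of 8 and of the phosphatases and adaptors 9 of 15. *Il2rg*, the common gamma chain to which JAK3 binds, had 95.3 ± 122 in WT-GFP astrocytes and 1121 ± 201 in GFP- cells. *Stat3* was lower in astrocytes with a log2 fold change of -0.96 ± 0.30 (SE, limma adjusted *p* = 0.0337). This value is nearer to 0 than the median over all genes tested, -1.31.

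Between APP-GFP and WT-GFP astrocytes, 2 of 51 pathway genes tested were called, beside 2.23% of all genes, both higher in APP-GFP: *Osm*, which encodes oncostatin M, with 4.07 ± 1.77 (SE, limma adjusted *p* = 0.999), and *Ptpn1*, a phosphatase that acts on JAK2 and TYK2, with 1.17 ± 0.40 (SE, limma adjusted *p* = 0.999). *Osm* was at 0 in 5 of 7 WT-GFP samples and in 1 of 4 APP-GFP samples, and its mean was 1008 ± 318 (SD, n = 3) in GFP- cells. Between APP-SOCS3 and APP-GFP astrocytes, 7 of 52 were called, beside 5.7% of all genes. *Socs3* was higher, and *Stat3*, *Ifnar2*, *Il10rb*, *Il2rg*, *Ptpn1* and *Ptpn6* were lower. *Stat3* had 1629 ± 443 against 2817 ± 793, and *Il2rg* had 14.8 ± 13.7 against 197 ± 176 (SD, n = 5 and 4). In the comparison of APP-SOCS3 with WT-GFP, 6 of 52 were called, beside 5.21% of all genes. *Socs3* and *Stat5a* were higher, and the lower ones included *Il10ra*, *Stat3* and *Stat6*. *Stat6*, the factor of interleukin-4 signaling, had 88.2 ± 41.4 in APP-SOCS3 and 406 ± 124 in WT-GFP astrocytes, with a log2 fold change of -2.34 ± 0.44 (SE, limma adjusted *p* = 0.104). Of these calls, *Socs3* alone had an adjusted *p* under 0.05 in either comparison.

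For the 8 genes whose mean over the 16 GFP+ samples was 100 or more, the 2 genes with the most similar pattern were found by Pearson's r of log2(level + 1) among the 10237 other genes with such a mean. The samples share group differences and detection limits, so these values are descriptions. *Il6st* was most like *Api5* (r = 0.98) and *Arhgap21* (r = 0.98), *Lifr* like *AU041133* (r = 0.95) and *Tspyl5* (r = 0.94), and *Osmr* like *Cltc* (r = 0.89) and *Smo* (r = 0.88). *Cntfr* was most like *Cadm4* (r = 0.83) and *Pnpla2* (r = 0.82). Among the kinases, *Jak1* was most like *Dock1* (r = 0.93) and *Megf10* (r = 0.92), *Jak2* like *Ddx3y* (r = 0.88) and *Fbxw11* (r = 0.88), and *Tyk2* like *Slc14a1* (r = 0.92) and *Ankrd28* (r = 0.90). *Jak3* was most like *Slc11a1* (r = 0.91), a metal transporter of phagocytes, and *Inpp5d* (r = 0.83), a phosphatase of blood and microglial cells. Among the 10 genes themselves, the highest values were those of *Jak1* with *Osmr* (r = 0.82) and with *Il6st* (r = 0.79), and the lowest that of *Cntfr* with *Jak2* (r = -0.53). Values for *Il6st* include the 1 sample without a read.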

How the data were processed

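The authors mapped reads of SMARTer ultra-low input libraries to mm10 with STAR 2.4.0, counted them on constitutive regions of FAST DB genes and normalized them with DESeq2. The deposited values, used here as a signal per gene and sample, are these read counts divided by a size factor. Whole reads were recovered for 100.0% of values (tolerance 0.001) and used for edgeR and DESeq2 only. Genes whose mean reached 10 in 1 of the groups or both were compared, 2 groups at a time, with limma 3.58.1 (lmFit and eBayes with trend, R 4.3.3) on log2(level + 1). The *p* values were adjusted by Benjamini-Hochberg over all genes tested in a comparison. A 2-sided exact permutation test of mean log2(level + 1) was run for each of the 10 genes, and the smallest *p* each design allows was 0.0167, 0.00606, 0.0159 and 0.00253 in the order of the report. The pipeline was tested on simulated data. The thresholds for a call follow the study's methods. The genes, the lists of 58 pathway and of marker genes, the 20000-gene limit and the tests were chosen with earlier results of these data known. All 10 genes are named, pathway genes are given by counts with some of those called named as examples beside *Socs3* and *Stat3*, and the 2 most similar genes are named for each of the 10 with a mean level of at least 100. Replicate numbers are those of the labels. Alternatives were other pseudocounts (0.1 and 10), minimum levels, scalings, thresholds and sample sets, sample weights, edgeR 4.0.16, DESeq2 1.42.0, the replicate number as a block and marker levels as covariates. Leaving out libraries with fewer than 20000 genes detected, and all alternatives of the exact test, were chosen after seeing the data. Exon lengths are of GENCODE M21. Promoter windows are of RefSeq. Values of the other pathway genes are not reported here.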

Additional observations from a re-analysis of the deposited data

Results flagged for a closer look

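*Lepr* in APP-GFP replicate 2 was the 1 value that stood apart from its group by Dixon's test, among 30 sets of samples of 1 gene and 1 group tested, of which chance flags about 1 in 20. The level was 0 reads in this sample, and the other 3 APP-GFP samples had levels of 25.3, 28.7 and 28.8. This library is also 1 of the 4 with fewer than 20000 genes detected. In the comparison of APP-SOCS3 with APP-GFP astrocytes, no other of these libraries takes part. Without it, *Lepr* was called lower in APP-SOCS3, with a log2 fold change of -4.84 in place of -3.63. All 5 APP-SOCS3 samples were at 0, so leaving out a 0 of APP-GFP could only enlarge the difference. This is no check of the call.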

How the results depend on the processing

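Between GFP+ and GFP- cells, 7 of the 10 genes were called, and 4 were with scaling to upper quartiles (*Lifr*, *Lepr*, *Il6ra* and *Jak3*) and 4 with edgeR (*Lifr*, *Il6ra*, *Jak2* and *Jak3*), against 3 to 8 with single samples left out. Of all genes 42.8% were called, 41.1% with that scaling, 32.2% with edgeR and 33.4 to 43.7% with single samples left out. Over all genes, scaling moved the median log2 fold change from -1.31 to -1.46 (equal totals), -0.86 (upper quartiles), -0.37 (edgeR) and -0.67 (DESeq2). Between APP-GFP and WT-GFP astrocytes, 0 were called, and 1 was with a pseudocount of 10 (*Jak3*), with all 19 samples in 1 fit (*Jak2*), with sample weights (*Jak2*) and with the replicate number as a block (*Jak3*), against 0 to 2 with single samples left out. Shares of all genes at these settings were 2.23%, 4.31%, 4.79% and 2.96%, and 1.71 to 2.91% with single samples left out, against 2.23% in the main fit. For APP-SOCS3 against APP-GFP, 2 were called, and 1 was with a minimum mean level of 100 (*Jak3*, since *Lepr* was no longer tested), with edgeR, with DESeq2 and with the microglial or endothelial covariate (*Lepr* each time), while 0 were at an adjusted *p* under 0.05. With single samples left out 2 or 3 were called. Shares of all genes called were 5.7% in the main fit, 5.08% at that minimum, 5.79% with edgeR and 6.3% with DESeq2. They were 2.27% and 2.9% with the microglial and endothelial covariates, 0.00438% after adjustment and 4.62 to 8.02% with single samples left out. Between APP-SOCS3 and WT-GFP astrocytes, 1 was called, and 2 were with all 19 samples in 1 fit (*Lifr* added), with edgeR (*Lepr* added) and with DESeq2 (*Osmr* added), 5 with sample weights (*Osmr*, *Lepr*, *Jak2* and *Jak3* added), 3 without the libraries of few detected genes and 0 at an adjusted *p* under 0.05. With single samples left out 1 or 2 were called, always with *Cntfr*. Shares of all genes called were 5.21% in the main fit, 6.28% in 1 fit, 5.24% with edgeR, 5.07% with DESeq2 and 11.3% with sample weights. They were 7.18% without the libraries of few detected genes, 0.0305% after adjustment and 3.94 to 6.25% with single samples left out. The cause of these shifts was not tested.

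By the exact permutation test, 8, 0, 1 and 1 genes passed in the 4 comparisons. With single samples left out, 0 to 8, 0 to 2, 0 to 1 and 1 to 2 passed. There, 7 against 2 samples cannot reach 0.05. This test was not run on other genes, so these counts have no share of all genes to be set against. The 8 of the first comparison are those whose groups did not overlap, as was the case for 34.8% of all genes tested. No called difference changed direction under any alternative. With the replicate block, 7, 1, 3 and 1 genes were called, with *Jak1* in place of *Osmr* in the first comparison and *Cntfr* added in the third. Of all genes 41.7%, 2.96%, 5.0% and 6.07% were called in this fit. Correlations of deviations between samples of the same number were -0.08 to 0.15, and 2 of 3, 1 of 4, 3 of 4 and 0 of 5 samples correlated best with their own number. With so few samples, these values cannot decide whether samples of the same number are paired. The main fits took them as unpaired. Levels near 0, as those of *Lepr* and *Il6ra*, rest on few reads, and their log2 fold changes depend on the pseudocount.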
